A study of Coryphaena hippurus with 27 samples.

Results

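The miRNA names with a number of 1000 or above were described in mahi-mahi, Coryphaena hippurus, a fast-growing oceanic fish. Members were the rows of the 6 deposited count tables named miR- followed by a whole number of at least 1000, with any letter or arm. The rule used the name alone and no measured value. It gave 207 of the 1449 names in the tables, from 180 different numbers. The lowest member number was 1187, and the nearest number below the limit was 999. miR-1187 held 81 counts over all 27 libraries, against 2 counts each for miR-999 and miR-999-3p.

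Small RNA of whole animals was sequenced in 3 libraries per group, each from a separate pool of 30 animals. The 9 groups were slick oil, source oil and control water, each at 24, 48 and 96 hours post fertilisation (hpf). Slick oil was collected at the sea surface and source oil came from the well of the Deepwater Horizon spill. Both were used as a high-energy mixed preparation in seawater, labelled 1 g per litre, and controls received no oil. All groups were embryos or larvae kept in beakers of seawater from soon after fertilisation without renewal of the water. The labels call the tissue whole embryo at every stage, so a level is an average over all tissues, and fewer cells of a type and less RNA per cell cannot be told apart.

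A miRNA is a short RNA cut from a hairpin that pairs with messenger RNAs and lowers their output. The cut yields a 5p arm and a 3p arm, and usually 1 of the arms accumulates more than the other. Numbers are given in the order in which miRNAs were registered. The families shared by most animals were therefore numbered early, and later numbers hold many miRNAs known from 1 species or a few. Some later entries have been questioned as pieces of transfer RNA or ribosomal RNA. The names here carry no species prefix, so a member states which registered entry the authors' counting matched and not that mahi-mahi has that hairpin.

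Members were a small part of each library. They took 0.610 to 1.01% of the counts, and library totals lay between 51925 and 93055. No name held more than 771 counts in any library. Whether these counts are all reads of a library or a subset of them is not given in the sources used here, so levels and p-values hold for the counts as deposited. Between 48 and 76 members were detected per library, 28 members in all 27 libraries and 90 in 1 library only. The mean count was below 1 in 158 members and at least 10 in 11. On a common scale of normalised counts per 70000, the mean level over all libraries was at least 10 in 10 of 207 members (4.83%) and in 638 of 1242 other names (51.4%). Of the 15761 counts that members held, miR-8159-5p took 37.0% and miR-7641 took 10.6%. Most replicate pairs agreed closely: the chi-square of counts over names, per degree of freedom, lay between 0.479 and 1.87 in 27 replicate pairs and below 1 in 19. Some pairs exceeded counting noise. At 24 hpf the chi-square was 1.62 and 1.42 for slick replicate 3 against replicates 1 and 2. For source replicate 2 against replicates 1 and 3 of that stage the chi-square was 1.87 and 1.20. At 24 hpf it was 0.545 for slick replicates 1 and 2 and 0.798 for source replicates 1 and 3, below counting noise, while the counts were identical in 10.1% of names for the slick pair and 9.79% for the source pair. All were kept as separate replicates. With these pairs averaged as 1 sample, 2 members passed at 24 hpf for slick oil and 4 for source oil, against 2 and 3 without averaging.

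A filter on low counts left 18 members that were tested in at least 1 oil comparison, from 12 numbers, and 9 of these were tested in all 6. The filter kept a name where enough libraries held it at about 10 counts, so a member present mainly in 1 group was tested because of that group. Several tested names were copies or near copies of each other. miR-1338-5p and miR-1388 had identical counts in all 27 libraries, and miR-1388-5p differed from them by at most 3 counts. miR-1338-3p and miR-1388-3p were identical in 20 libraries and differed by at most 2 counts elsewhere. miR-2188 and miR-2188-5p differed by at most 4 counts. miR-2187 and miR-2187-5p were also close, as at raw counts of 11, 13 and 18 against 15, 15 and 20 in controls of 96 hpf. These names are not independent members, and a count over them counts 1 signal more than 1 time.

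**Figure D1:**
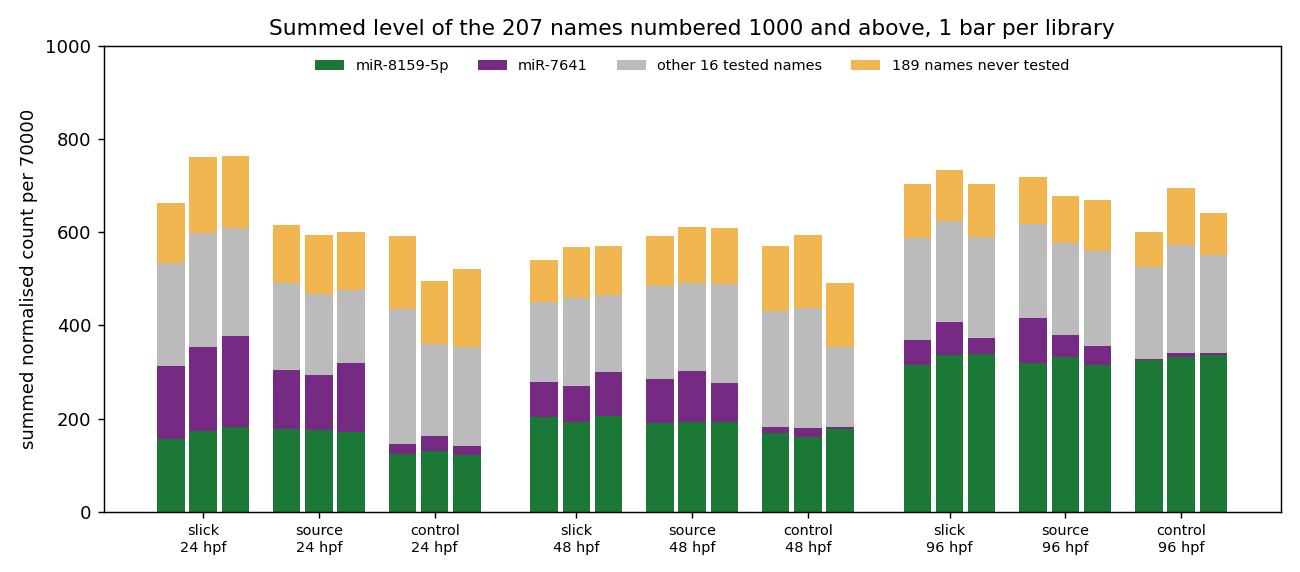
Summed normalised counts per 70000 of the members, 1 bar per library, with slick oil, source oil and control water from left to right at each stage. Each bar is divided into miR-8159-5p, miR-7641, the other 16 tested members and the 189 members never tested. The miR-7641 segment is tall in oil libraries and short in controls, and the miR-8159-5p segment is tallest at 96 hpf in all 3 exposures.

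The summed level of all members at 24 hpf was 729 ± 57.6 under slick oil, 603 ± 10.7 under source oil and 536 ± 49.4 in controls (SD, n = 3 each). At 48 hpf it was 559.7 ± 16.5 under slick oil, 604 ± 11.3 under source oil and 552 ± 54.5 in controls. The sum at 96 hpf was 714 ± 17.1 under slick oil, 689 ± 25.7 under source oil and 645 ± 47.8 in controls. Both oil groups lay above the controls at 24 hpf without overlap, both overlapped with them at 48 hpf, and at 96 hpf slick libraries lay above all controls while source libraries overlapped. Leaving out miR-8159-5p and miR-7641, the sum at 24 hpf was 381 ± 29.2 under slick oil, 298 ± 15.1 under source oil and 386 ± 56.4 in controls. At 48 hpf that remainder was 277 ± 18.6 under slick oil, 316 ± 14.3 under source oil and 371 ± 56.1 in controls. At 96 hpf the remainder was 330.3 ± 4.50 under slick oil, 305 ± 7.83 under source oil and 309 ± 41.4 in controls. Without these members no oil mean lay above the control mean at 24 or 48 hpf. Copies enter these sums too. No test was made on these sums.

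miR-7641 was higher in every oil library than in any control library of its stage. The entry is known from human and has been questioned as a piece of ribosomal RNA. At 24 hpf its level was 156.7, 180.9 and 193.5 under slick oil, 126.4, 118.8 and 148.3 under source oil, and 22.8, 33.2 and 18.7 in controls. At 48 hpf it was 73.9, 77.2 and 93.9 under slick oil, 94.1, 109 and 83.9 under source oil, and 12.8, 18.003 and 6.26 in controls. Neither oil group overlapped with controls at these stages, and slick and source libraries overlapped at 48 hpf but not at 24 hpf. At 96 hpf the level was 53.4, 71.4 and 34.3 under slick oil, 95.8, 48.3 and 41.4 under source oil, and 1.28, 8.04 and 4.28 in controls. The oil groups again lay wholly above the controls, whose raw counts were then 1, 7 and 4.

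miR-7641 passed the test in all 6 oil comparisons (edgeR quasi-likelihood test, Benjamini-Hochberg adjusted p under 0.05). At 96 hpf it passed the count filter through the oil libraries, where it was high, since controls held raw counts of 1, 7 and 4. At 48 hpf controls held 13, 18 and 5, and the oil libraries were needed there too. Under slick oil the log2 fold change over controls was 2.83 ± 0.17 (SE) at 24 hpf (adjusted p = 9.503e-07), 2.65 ± 0.22 at 48 hpf (1.623e-24) and 3.58 ± 0.35 at 96 hpf (8.003e-11). Under source oil it was 2.39 ± 0.19 at 24 hpf (adjusted p = 2.211e-07), 2.89 ± 0.20 at 48 hpf (6.228e-12) and 3.78 ± 0.32 at 96 hpf (5.381e-17). The authors' deposited table gave smaller log2 fold changes, 2.02 for slick oil at 96 hpf, 1.504 for source oil at 48 hpf and 1.51 at 96 hpf, all past the threshold. The oil difference did not pass a test of change with stage (slick oil adjusted p = 0.558; source oil adjusted p = 0.304).

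The level of miR-7641 fell with stage in control animals. In the fit over controls it passed the count filter mainly through those of 24 hpf, where it was high, at raw counts of 22, 26 and 15. Its raw counts were 13, 18 and 5 at 48 hpf and 1, 7 and 4 at 96 hpf. The step to 48 hpf had a log2 fold change of -0.95 ± 0.31 (48 over 24 hpf, edgeR adjusted p = 0.0133), and the step to 96 hpf had -1.38 ± 0.46 (96 over 48 hpf, adjusted p = 0.0136). Both calls were lost with DESeq2 (adjusted p = 0.0569 and 0.0512). The step to 48 hpf was also lost without control replicate 2 of 24 hpf (adjusted p = 0.0800) or replicate 6 of 48 hpf (0.0638). The step to 96 hpf was lost without control replicate 5 of 48 hpf (adjusted p = 0.0989) or replicate 7 of 96 hpf (0.0859). Group means under oil were also lower at the later stages, 177, 81.7 and 53.0 under slick oil and 131, 95.7 and 61.8 under source oil at 24, 48 and 96 hpf, with no test made between oil stages.

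**Figure D2:**
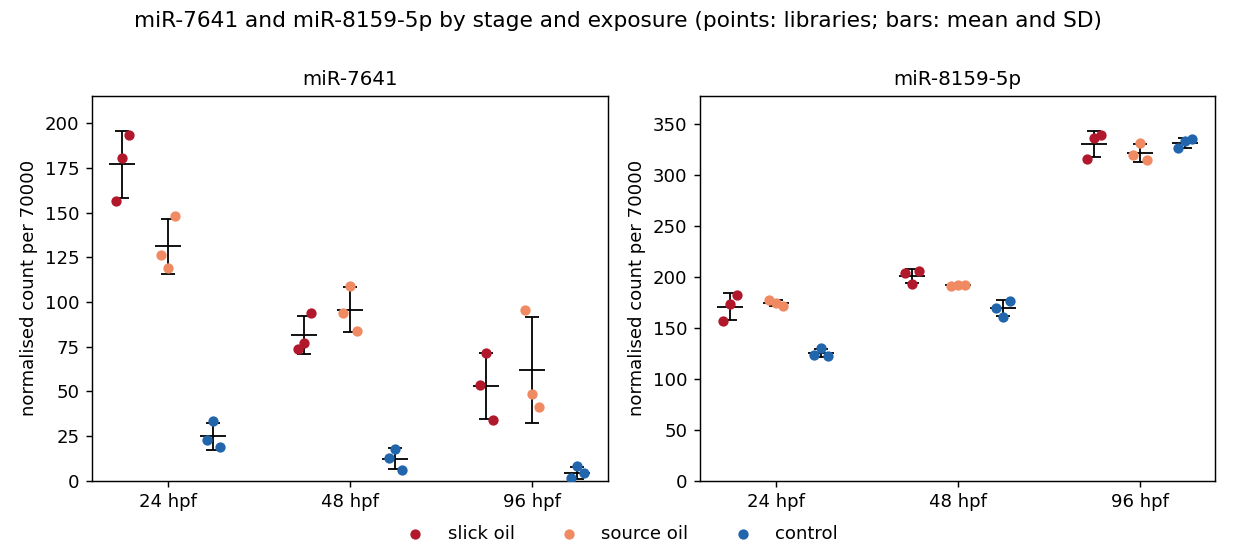
Normalised counts per 70000 of miR-7641 and miR-8159-5p in each library by stage, with slick oil, source oil and control water from left to right. Points are libraries, and bars are the mean and SD of 3. For miR-7641 every oil point lies above every control point of its stage, while for miR-8159-5p both oil groups lie above the controls at 24 and 48 hpf and overlap with them at 96 hpf.

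miR-8159-5p had the highest mean level of any member and ranked 108 among all 1449 names, while miR-7641 ranked 332. No role is given for it here. At 24 hpf its level was 157, 173 and 183 under slick oil, 178, 175 and 171 under source oil, and 124, 130.3 and 122 in controls. At 48 hpf it was 204, 194 and 206 under slick oil, 191.5, 193 and 192 under source oil, and 169.7, 161 and 177 in controls. Both oil groups lay above the controls at 24 and 48 hpf without overlap. At 96 hpf its level was 316, 336 and 339 under slick oil, 319.6, 332 and 315 under source oil, and 326, 333 and 336 in controls, and the groups overlapped.

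The oil difference of miR-8159-5p was smaller than that of miR-7641 and was seen at the early stages. At 24 hpf the log2 fold change was 0.45 ± 0.09 under slick oil (edgeR adjusted p = 0.00322) and 0.47 ± 0.10 under source oil (adjusted p = 0.00208). The call under slick oil did not pass in the authors' deposited table (adjusted p = 0.0517), and that under source oil was lost with DESeq2 (0.0511). At 48 hpf it was 0.24 ± 0.09 under slick oil (edgeR adjusted p = 0.0246), lost with DESeq2 (0.128), and 0.19 ± 0.09 under source oil (adjusted p = 0.128). That slick oil call was also lost with cyclic loess (adjusted p = 0.0797), in the authors' deposited table (0.116), and without control replicate 4 (adjusted p = 0.0822) or 5 (0.106), or slick replicate 4 (0.0723) or 6 (0.0905). At 96 hpf it was 0.09 ± 0.06 under slick oil (adjusted p = 0.226) and 0.06 ± 0.06 under source oil (0.473). The slick oil difference at 96 hpf passed in 3 of 15 alternatives, at 0.15 with library size alone (edgeR adjusted p = 0.0303), at 0.17 when names needed a mean count of at least 50 (0.0145), and with the cyclic loess described next.

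The oil difference of miR-8159-5p passed the test of change with stage under slick oil (edgeR adjusted p = 0.00322) and under source oil (adjusted p = 2.468e-04). Both calls were lost under other scalings. With library size alone they were lost (adjusted p = 0.307 and 0.138 for slick and source oil), and with a trend over abundance removed by cyclic loess they were lost too (0.519 and 0.354). With that trend removed, miR-8159-5p was higher at 96 hpf as well, by a log2 fold change of 0.29 under slick oil (adjusted p = 2.079e-05) and 0.23 under source oil (0.00194). Over 26 alternatives the stage call held in 15 under slick oil and in 21 under source oil. Both were also lost when names needed a mean count of at least 50 (adjusted p = 0.235 and 0.121 for slick and source oil), and the slick oil call with no filter (0.0759) or with identical names merged (0.0977). Under source oil it was lost without source replicate 1 of 24 hpf (adjusted p = 0.0791) or replicate 9 of 96 hpf (0.0518). Under slick oil it was lost without control replicate 3 of 24 hpf (0.106), 4 of 48 hpf (0.0606), 7 of 96 hpf (0.114) or 8 of 96 hpf (0.0516), or slick replicate 3 of 24 hpf (0.0631) or 7 of 96 hpf (0.0580).

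In controls miR-8159-5p rose with stage, opposite to miR-7641. The log2 fold change was 0.42 ± 0.10 for 48 over 24 hpf (edgeR adjusted p = 2.899e-04) and 1.03 ± 0.06 for 96 over 48 hpf (adjusted p = 1.438e-11). Both calls held in each of 13 alternatives. Group means under oil followed the same order of stages, 171, 201 and 330.3 under slick oil and 175, 192 and 322 under source oil.

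Set beside all names, members passed no more often in most oil comparisons. At 24 hpf 2 of 11 tested members passed under slick oil, both higher, against 38.6% of all names, 21.3% higher and 17.4% lower. At 24 hpf under source oil 3 of 10 passed, 2 higher and 1 lower, against 26.3% of all names, 14.2% higher and 12.2% lower. At 48 hpf 4 of 10 passed under slick oil, 2 higher and 2 lower, against 40.8% of all names, 19.5% higher and 21.3% lower. For source oil 1 of 10 passed at that stage, higher, against 19.4% of all names, 9.22% higher and 10.1% lower. At 96 hpf 4 of 18 passed under slick oil, 3 higher and 1 lower, against 60.1% of all names, 32.5% higher and 27.6% lower. Under source oil 4 of 16 passed there, 3 higher and 1 lower, against 48.0% of all names, 28.3% being higher and 19.7% lower. The share of members called lay near that of all names for slick oil at 48 hpf and source oil at 24 hpf, and below it in the other 4 comparisons. Copies enter these counts. The 2 lower under slick oil at 48 hpf were the identical miR-1338-5p and miR-1388, and with identical names merged 3 members passed there. Of the 3 higher at 96 hpf under each oil, 2 were the near copies miR-2188 and miR-2188-5p. With so few members tested, these shares are descriptions.

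The median log2 fold change of the tested members was below 0 in 3 of the 6 oil comparisons. Its values at 24, 48 and 96 hpf were 0.10, -0.23 and 0.07 under slick oil, against -0.03, 0.01 and -0.01 for all names tested. Under source oil they were -0.52, 0.02 and -0.02, against -0.01, -0.01 and 0.03 for all names. The median under source oil at 24 hpf was the farthest from that of all names among these 6. Copies enter these medians. In that comparison miR-1338-5p and miR-1388 were each at -0.76 and their near copy miR-1388-5p at -0.66, so 1 signal entered more than 1 time. Slick and source comparisons of a stage share their control libraries.

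**Figure D3:**
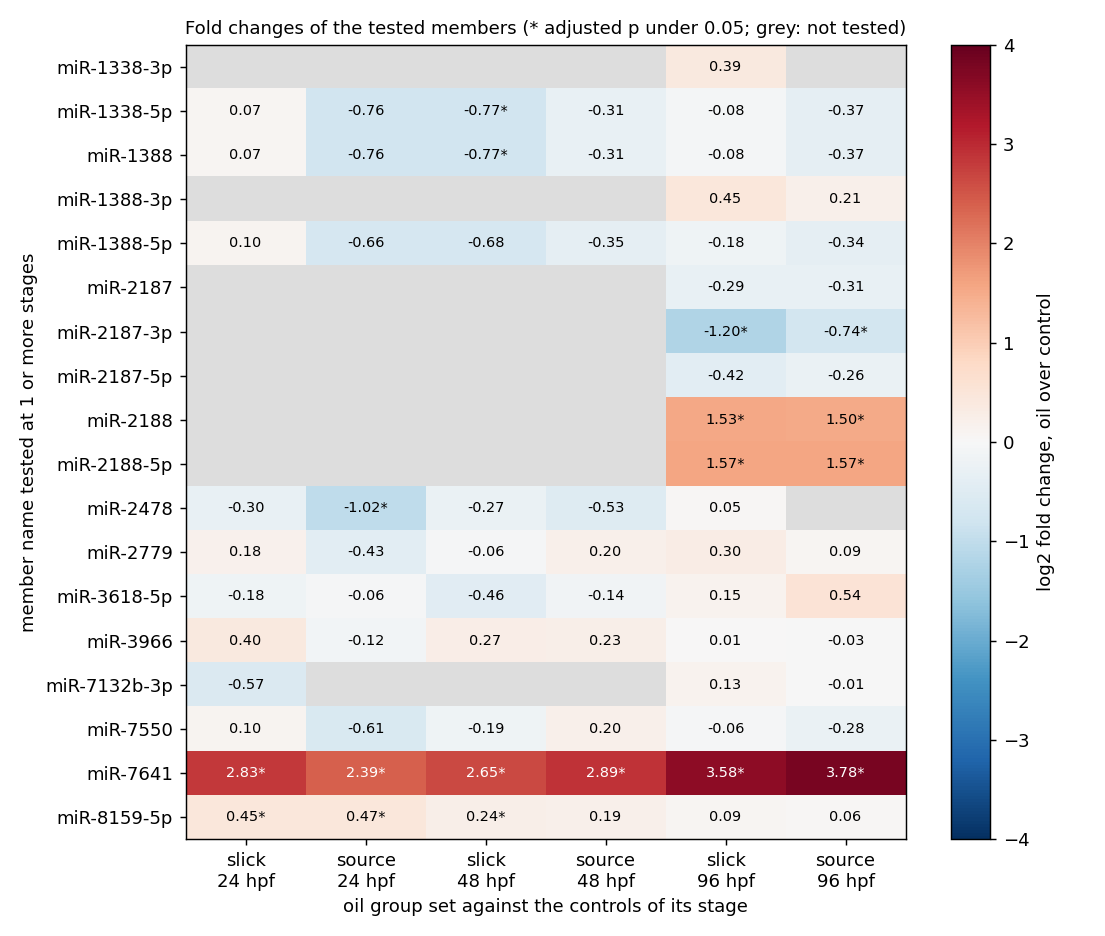
Log2 fold change of oil over control for the 18 tested members, from top to bottom by number, in the 6 oil comparisons, from left to right by stage, from the edgeR fits. An asterisk marks an adjusted p under 0.05, and grey cells were under the count filter. Cells of miR-7641 are deep red throughout, the miR-2188 names are red at 96 hpf, and most other cells are pale.

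The miR-2188 names were higher in both oil groups at 96 hpf. miR-2188 was described in zebrafish. At 96 hpf miR-2188-5p was at 20.9, 18.2 and 26.1 under slick oil, 19.2, 21.3 and 21.1 under source oil, and 11.5, 4.60 and 7.49 in controls. Each oil library exceeded each control library. miR-2188-5p passed the count filter through these oil libraries, at raw counts of 27, 23 and 32 under slick oil and 22, 26 and 26 under source oil, while controls held 9, 4 and 7. It and miR-2188 were tested against controls at 96 hpf alone, because they were high there. The log2 fold change of miR-2188-5p was 1.57 ± 0.29 under slick oil (edgeR adjusted p = 1.134e-05) and 1.57 ± 0.33 under source oil (adjusted p = 1.853e-05). For miR-2188, nearly the same counts, it was 1.53 ± 0.30 (adjusted p = 3.180e-05) and 1.502 ± 0.35 (7.977e-05). These 4 calls held in each of 14 alternatives, the authors' deposited table included.

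At 48 hpf miR-2188-5p was under the count filter and was not tested. Its level there was 10.9, 10.7 and 9.76 under slick oil, 7.66, 6.68 and 10.6 under source oil, and 3.95, 4.001 and 2.51 in controls. Again no oil library overlapped with a control library. At 24 hpf the level was 4.02, 5.13 and 4.78 under slick oil, 9.94, 6.60 and 6.12 under source oil, and 4.15, 3.83 and 3.74 in controls. Slick oil libraries thus overlapped with controls and source oil libraries lay above. Raw counts there were 7, 4 and 4 under source oil and 4, 3 and 3 in controls. A count of 4 occurred in both, so the separation rested on the scaling. The change of the oil difference with stage did not pass for miR-2188-5p (slick oil adjusted p = 0.301; source oil adjusted p = 0.941). The other arm, miR-2188-3p, held 112 counts over all libraries against 271 for miR-2188-5p and was under the filter in every oil comparison.

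miR-2188-3p, under the count filter and picked out after its values were seen, had lower normalised levels in oil libraries than in controls. At 48 and 96 hpf this was opposite to miR-2188-5p. At 48 hpf its level was 3.64, 2.37 and 6.10 under slick oil, 6.57, 7.79 and 6.37 under source oil, and 10.9, 10.002 and 11.3 in controls. At 96 hpf it was 2.32, 3.17 and 0.816 under slick oil, 3.48, 2.46 and 1.62 under source oil, and 6.39, 4.60 and 7.49 in controls. At 24 hpf it was 4.02, 2.57 and 0 under slick oil, 1.42, 1.65 and 0 under source oil, and 4.15, 6.38 and 4.99 in controls. In normalised level no oil library overlapped with a control library at any of these stages, at raw counts of at most 11. At 96 hpf a raw count of 4 occurred in a slick, a source and a control library, so the separation there rested on the scaling. At 24 hpf the nearest slick and control libraries held 3 and 4 counts. With no filter, miR-2188-3p was among the 8 members that passed for slick oil at 96 hpf. That pass was on the same counts by which it was picked. Over 27 libraries log2 levels of the arms correlated at r = -0.36, a description of libraries that share stages and exposures.

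miR-2187-3p was lower in both oil groups at 96 hpf. Besides it, miR-7641 and the miR-2188 names, no member passed at that stage. miR-2187 was also described in zebrafish. At 96 hpf the level of miR-2187-3p was 7.73, 6.34 and 6.52 under slick oil, 8.71, 10.6 and 8.92 under source oil, and 16.6, 18.4 and 16.0 in controls. In normalised level neither oil group overlapped with the controls. Among the oil comparisons miR-2187-3p was tested at 96 hpf alone. Under both oils the controls, where it was high, were needed for it to pass the filter. Raw counts were 10, 8 and 8 under slick oil, 10, 13 and 11 under source oil and 13, 16 and 15 in controls. The log2 fold change was -1.20 ± 0.35 under slick oil (edgeR adjusted p = 0.00140), and the call held in 14 of 14 alternatives. Under source oil it was -0.74 ± 0.32 (adjusted p = 0.0466), and 5 of 14 alternatives kept the call. It was lost there with DESeq2 (adjusted p = 0.127), library size alone (0.0603), no filter (0.0688) and in the authors' deposited table (0.136). It was also lost there without control replicate 7 (adjusted p = 0.0721), 8 (0.119) or 9 (0.0648), or source replicate 7 (0.104) or 9 (0.107).

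The 5p arm of miR-2187 did not pass at 96 hpf. miR-2187-5p was at 15.5, 12.7 and 12.2 under slick oil, 13.1, 14.7 and 17.0 under source oil, and 19.2, 17.2 and 21.4 in controls. Its log2 fold change was -0.42 ± 0.29 under slick oil (edgeR adjusted p = 0.199) and -0.26 ± 0.28 under source oil (adjusted p = 0.443). In normalised level oil libraries lay below all controls, the highest source library only just. Raw counts were 20, 16 and 15 under slick oil, 15, 18 and 21 under source oil and 15, 15 and 20 in controls. They overlapped, so the separation rested on the scaling. With cyclic loess the slick oil difference passed, at -0.84 (adjusted p = 0.00930). The difference between the arms was not tested. Over 27 libraries log2 levels of the arms correlated at r = 0.77, a description of libraries that share stages and exposures.

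In controls miR-2187-3p rose at both steps, and miR-2187-5p and miR-2187 at the later step. miR-2187-3p passed the count filter here through the controls of 96 hpf, where it was high, at raw counts of 13, 16 and 15. Its raw counts were 2, 3 and 1 at 24 hpf and 9, 6 and 6 at 48 hpf, so the earlier step rests on few counts. miR-2187 also needed the controls of 96 hpf to pass the filter, at raw counts of 11, 13 and 18. For miR-2187-3p the log2 fold change was 1.60 ± 0.59 for 48 over 24 hpf (edgeR adjusted p = 0.0175) and 1.23 ± 0.36 for 96 over 48 hpf (adjusted p = 0.00199). The earlier step was lost with DESeq2 (adjusted p = 0.0821) and without control replicate 1 (0.0613) or 3 (0.0841) of 24 hpf or 4 of 48 hpf (0.0751). For the step to 96 hpf it was 0.81 ± 0.32 for miR-2187-5p (adjusted p = 0.0330) and 0.80 ± 0.32 for miR-2187 (0.0367). The miR-2187-5p call was lost with DESeq2 (adjusted p = 0.121), with library size alone (0.0585), and without control replicate 6 of 48 hpf (0.174) or replicate 7 (0.0616) or 9 (0.0893) of 96 hpf. The miR-2187 call was lost with DESeq2 (adjusted p = 0.154), with library size alone (0.0625), with no filter (0.0552), and without control replicate 6 of 48 hpf (0.230) or replicate 8 (0.0573) or 9 (0.161) of 96 hpf.

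The step of miR-2187-5p to 48 hpf did not pass, at 0.75 ± 0.41 (adjusted p = 0.156). Its controls at 24 hpf were at 12.5, 2.55 and 3.74, with replicate 1 far above the others. Without that replicate the log2 fold change was 1.79 (adjusted p = 0.00739), and for miR-2187 it was 1.55 (0.0286).

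**Figure D4:**
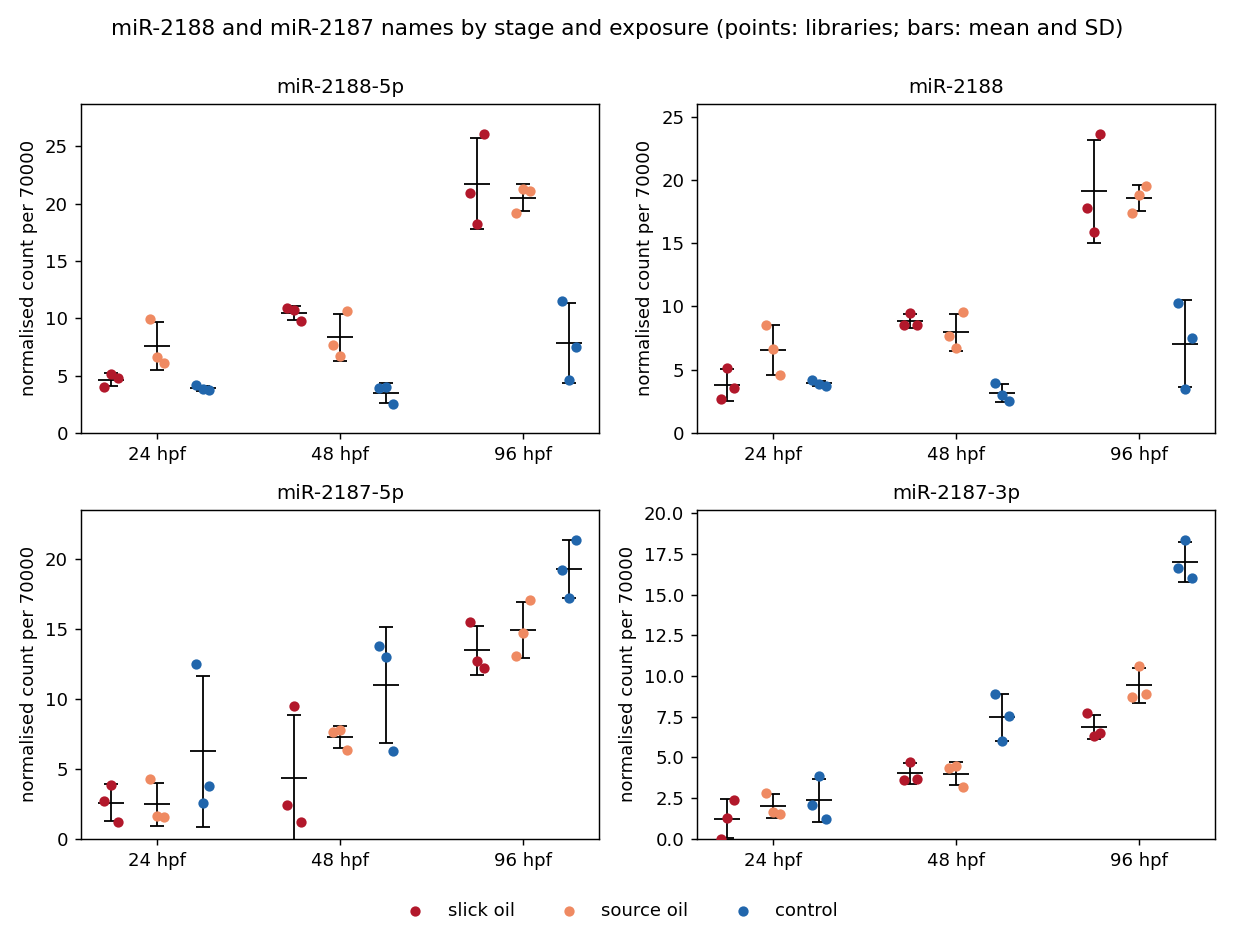
Normalised counts per 70000 of the miR-2188 and miR-2187 names in each library by stage, with slick oil, source oil and control water from left to right. Points are libraries, and bars are the mean and SD of 3. At 96 hpf the oil points of both miR-2188 names lie above the controls and those of miR-2187-3p lie below them, while source oil points of miR-2187-5p nearly reach the controls.

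miR-2478 was lower under source oil at 24 hpf. The entry is known from cattle and has been questioned as a piece of a transfer RNA. Its level at 24 hpf was 29.5, 35.9 and 27.5 under slick oil, 22.7, 19.8 and 13.8 under source oil, and 46.7, 31.9 and 33.7 in controls. Source oil libraries lay below all controls, and slick oil libraries overlapped with them. Raw counts were 16, 12 and 9 under source oil and 45, 25 and 27 in controls. In the source oil comparison the controls, where it was high, were needed for it to pass the count filter. The log2 fold change was -1.02 ± 0.26 under source oil (edgeR adjusted p = 0.00782) and -0.30 ± 0.21 under slick oil (adjusted p = 0.298). The source oil call was lost with DESeq2 (adjusted p = 0.110), in the authors' deposited table (0.0937), without control replicate 1 (0.0603) and without source replicate 3 (0.0744).

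At 48 hpf miR-2478 was at 24.2, 30.9 and 32.9 under slick oil, 23.0, 24.5 and 25.5 under source oil, and 37.5, 41.0 and 25.1 in controls, and neither difference passed (edgeR adjusted p = 0.336 and 0.0795). Without control replicate 6, which was the lowest control, the source oil difference was -0.68 (adjusted p = 0.0290). At 96 hpf the level was 12.4, 9.51 and 10.6 under slick oil, 8.71, 4.91 and 4.87 under source oil, and 10.2, 13.8 and 9.63 in controls. Source oil libraries lay below the controls in normalised level but were under the filter in that comparison. Raw counts overlapped, at 10, 6 and 6 under source oil and 8, 12 and 9 in controls, so that separation rested on the scaling. In controls miR-2478 fell at the step to 96 hpf, by a log2 fold change of -1.58 ± 0.27 (96 over 48 hpf, edgeR adjusted p = 3.864e-05), which held in 12 of 12 alternatives.

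miR-2779 and miR-7550 were lower in controls at 48 hpf than at 24 hpf. miR-2779 was at 15.8, 18.003 and 8.77 in controls of 48 hpf and at 37.4, 23.0 and 26.2 in controls of 24 hpf, a log2 fold change of -1.02 ± 0.25 (edgeR adjusted p = 0.00212). miR-7550 was at 12.8, 13.0 and 7.52 in controls of 48 hpf and at 33.2, 20.4 and 21.2 in controls of 24 hpf, a change of -1.17 ± 0.26 (adjusted p = 9.239e-04). The stages did not overlap for either name, and both calls held in 12 of 12 alternatives. Their log2 levels correlated at r = 0.94 over the 27 libraries. miR-2779 had the higher count in 26 libraries and miR-7550 in 1, so their counts were not identical. The gap was often small, as at raw counts of 16, 13 and 17 against 13, 10 and 13 under source oil at 48 hpf. Whether the names share reads was not tested, and they may not be independent members. Neither passed in any oil comparison. At 24 hpf miR-2779 averaged 33.5 ± 2.56 under slick oil, 22.1 ± 6.01 under source oil and 28.9 ± 7.56 in controls, with log2 fold changes of 0.18 ± 0.23 under slick oil (edgeR adjusted p = 0.579) and -0.43 ± 0.27 under source oil (0.245). miR-7550 averaged 27.6 ± 4.52 under slick oil, 16.9 ± 5.36 under source oil and 25.0 ± 7.18 in controls, with log2 fold changes of 0.10 ± 0.25 under slick oil (edgeR adjusted p = 0.770) and -0.61 ± 0.30 under source oil (0.136). Both source oil means lay below the lowest control library, and single source oil libraries overlapped with controls for both names.

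miR-3618-5p, known from human, where its hairpin lies in the transcript of the miRNA-processing gene DGCR8, was lower in controls of 96 hpf than of 48 hpf. It was at 14.1, 10.3 and 9.63 in controls of 96 hpf and at 27.6, 21.0 and 16.3 in controls of 48 hpf, a log2 fold change of -0.91 ± 0.29 (edgeR adjusted p = 0.00898). The call was lost with DESeq2 (adjusted p = 0.0969), without control replicate 4 of 48 hpf (0.0973) and without replicate 9 of 96 hpf (0.0524). It did not pass in any oil comparison. miR-3966, known from mouse, passed in none of the oil or control comparisons, and its group means lay between 16.9 ± 2.81 (source oil, 96 hpf) and 27.4 ± 3.18 (slick oil, 24 hpf).

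miR-1388, an entry shared by zebrafish, was lower under slick oil at 48 hpf. With the identical miR-1338-5p, it was at 13.3, 8.31 and 10.98 under slick oil at 48 hpf, 13.1, 12.2 and 19.1 under source oil and 15.8, 25.0 and 13.8 in controls. The slick oil libraries lay below the controls in normalised level. Raw counts were 11, 7 and 9 under slick oil and 16, 25 and 11 in controls. The pair thus passed the count filter in this comparison through the controls, where it was high. A raw count of 11 occurred in both groups, so the separation rested on the scaling. The log2 fold change was -0.77 ± 0.33 (edgeR adjusted p = 0.0490). This call was lost with DESeq2 (adjusted p = 0.235), with no filter (0.0789), with the replicate number as a block (0.0540) and in the authors' deposited table (0.216). It was also lost without control replicate 5 (adjusted p = 0.389) or slick replicate 5 (0.213) or 6 (0.0905). miR-1388-5p, nearly the same counts, was at -0.68 ± 0.31 and did not pass (adjusted p = 0.0698). At 96 hpf under source oil the pair passed with cyclic loess alone, at -0.74 (adjusted p = 0.0363), against -0.37 ± 0.30 (0.299) with edgeR.

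miR-1388-3p, at low levels, was tested against controls at 96 hpf alone and did not pass there. It was at 6.06, 4.75 and 3.66 under slick oil at 48 hpf, 6.57, 8.91 and 9.56 under source oil, and 19.7, 11.002 and 10.02 in controls. At 24 hpf it was at 4.02, 8.98 and 8.36 under slick oil, 17.0, 4.95 and 4.59 under source oil, and 8.31, 3.83 and 4.99 in controls. At 96 hpf it was at 13.1, 10.3 and 12.2 under slick oil, 6.97, 12.3 and 10.5 under source oil, and 6.39, 9.19 and 11.8 in controls. Both oil groups lay below the controls at 48 hpf without overlap and overlapped with them at the other stages. Raw counts at 48 hpf were 6, 8 and 9 under source oil and 20, 11 and 8 in controls. The separation of source oil there thus rested on the scaling. In the slick oil fit over stages miR-1388-3p and miR-1338-3p passed the count filter through libraries where they were high. For miR-1388-3p these were slick replicates 7 and 9 of 96 hpf (raw counts 17 and 15) and control replicate 4 of 48 hpf (20). The change of the slick oil difference with stage passed for miR-1388-3p (edgeR adjusted p = 0.0124) and for miR-1338-3p (adjusted p = 0.0232). Both were lost without control replicate 4 of 48 hpf (adjusted p = 0.0922 and 0.148) and with cyclic loess (0.0729 and 0.113), and miR-1338-3p was lost without slick replicate 6 of 48 hpf (0.0575).

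**Figure D5:**
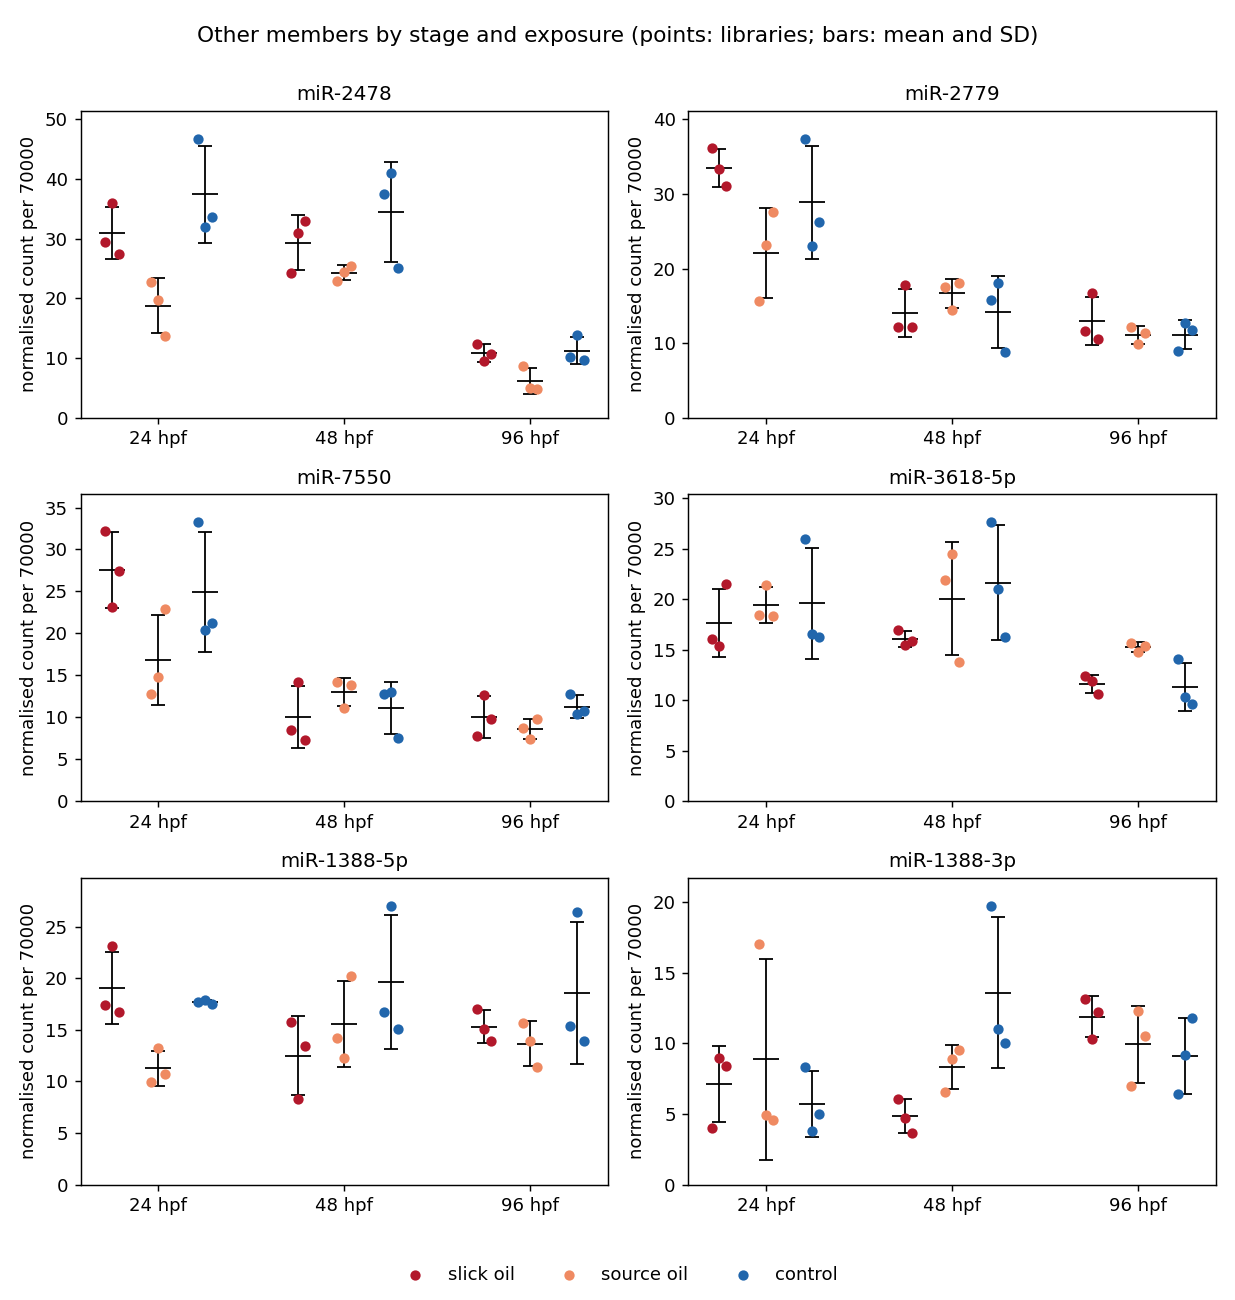
Normalised counts per 70000 of 6 further members in each library by stage, with slick oil, source oil and control water from left to right. Points are libraries, and bars are the mean and SD of 3. In all 3 exposures the mean of miR-2779 and of miR-7550 is highest at 24 hpf and that of miR-2478 lowest at 96 hpf, while the mean of miR-1388-3p is lowest under slick oil at 48 hpf.

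In the control time course 5 of 14 tested members passed between 24 and 48 hpf, 2 higher and 3 lower at 48 hpf, against 45.3% of all names, 23.2% higher and 22.1% lower. Of the 3 lower, miR-2779 and miR-7550 ran together (r = 0.94) and may not be independent. Between 48 and 96 hpf 7 of 14 passed, 4 higher and 3 lower at 96 hpf, against 58.7% of all names, 29.5% higher and 29.2% lower. The 4 higher were miR-8159-5p, miR-2187-3p, miR-2187-5p and miR-2187, with miR-2187-5p and miR-2187 being near copies. The members higher at both steps were miR-8159-5p and miR-2187-3p, and miR-7641 was lower at both. In the tests of change with stage 3 of 18 members passed under slick oil, against 41.4% of all names, and 1 of 19 under source oil, against 32.2%.

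For slick against source oil, a fit over all 9 libraries at each stage passed no member. With edgeR 0 of 11 members passed at 24 hpf against 1.16% of all names, while 7 members had an unadjusted p under 0.05, against 12.6% of all names. Among these 7, miR-1338-5p, miR-1388 and miR-1388-5p are copies or near copies of each other, and miR-2779 and miR-7550 ran together (r = 0.94). The others were miR-2478 and miR-7641, so the 7 are not independent members. At 48 hpf 0 of 10 passed against 5.49% of all names, 4.87% higher and 0.628% lower under slick oil, with 0 at an unadjusted p under 0.05, against 18.7% of all names. At 96 hpf 0 of 19 passed against 4.33%, 1.94% higher and 2.39% lower, with 1 at an unadjusted p under 0.05, against 16.3% of all names. DESeq2 also called 0 members at each stage. miR-2188-5p was left out at 96 hpf, because its control counts differed by 1 between the slick and source tables. For miR-7641 the log2 fold change of slick over source oil was 0.44 (95% interval 0.18 to 0.70) at 24 hpf, -0.23 (-0.49 to 0.04) at 48 hpf and -0.17 (-0.53 to 0.18) at 96 hpf. For miR-8159-5p it was -0.02 (-0.24 to 0.19), 0.07 (-0.11 to 0.24) and 0.06 (-0.05 to 0.18). For miR-2478 it was 0.71 (0.15 to 1.27), 0.27 (-0.21 to 0.75) and 0.84 (0.12 to 1.56), and slick libraries lay above source libraries without overlap at 24 and 96 hpf. For miR-2187-3p at 96 hpf it was -0.43 (-1.15 to 0.30), and for miR-2188 it was 0.06 (-0.42 to 0.54). These intervals are not adjusted for the number of names, and a difference that does not pass does not show that the oils act alike.

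Entries shared with or first named in zebrafish were present for 6 of 17 listed numbers, in 14 names, of which 8 were tested. Of the 2 names tested at 24 and 48 hpf, miR-1388 and miR-1388-5p, the only call was miR-1388 under slick oil at 48 hpf, given above. At 96 hpf 2 of 8 were higher and 1 lower under each oil, the miR-2188 names and miR-2187-3p described above, against 60.1% of all names called under slick oil and 48.0% under source oil. The higher names are near copies and stand for 1 signal. The 8 had a median log2 fold change of -0.13 under slick oil and -0.29 under source oil. Their summed level at 24 hpf was 78.9 ± 11.9 under slick oil, 73.7 ± 13.7 under source oil and 98.3 ± 18.9 in controls. At 48 hpf it was 76.7 ± 7.36 under slick oil, 88.1 ± 11.1 under source oil and 112 ± 19.3 in controls, with slick libraries below all controls. At 96 hpf it was 128 ± 9.54 under slick oil, 121 ± 7.04 under source oil and 127 ± 9.28 in controls, and the groups overlapped. Near copies enter these sums and the median, so 1 signal is summed more than 1 time. At 48 hpf miR-1388 and miR-1388-5p had mean levels of 10.9 and 12.5 under slick oil and 18.2 and 19.6 in controls.

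Entries that have been questioned as pieces of other RNAs were present for 6 of 17 listed numbers, in 8 names, and 2 of them, miR-7641 and miR-2478, were tested. The 7 names other than miR-7641 summed to 46.2 ± 10.02 under slick oil, 23.9 ± 4.83 under source oil and 45.8 ± 8.09 in controls at 24 hpf. At 48 hpf they summed to 34.2 ± 5.47 under slick oil, 32.3 ± 0.925 under source oil and 40.6 ± 12.4 in controls. At 96 hpf they summed to 16.4 ± 2.94 under slick oil, 8.94 ± 2.11 under source oil and 12.1 ± 2.17 in controls. Source oil libraries lay below the controls at 24 hpf and slick oil libraries overlapped with them. Most of these sums was miR-2478, described above, which at 24 hpf made up 18.8 of the 23.9 under source oil and 37.4 of the 45.8 in controls, so they are largely the values of that name. Whether the counts of miR-7641 come from ribosomal RNA was not tested.

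The 189 members never tested had 30 to 58 detected names and 59 to 157 counts per library, with a highest count of 13. They held 19.2% of all member counts. Their summed level at 24 hpf was 149 ± 17.3 under slick oil, 125 ± 1.96 under source oil and 153 ± 16.7 in controls. At 48 hpf it was 101 ± 9.39 under slick oil, 116 ± 7.42 under source oil and 144 ± 11.2 in controls, and neither oil group overlapped with controls. At 96 hpf it was 113 ± 2.97 under slick oil, 104 ± 5.48 under source oil and 96.1 ± 24.3 in controls, where the groups overlapped. No test was made on these sums. Single names among them could still stand apart. miR-6240, picked out after its values were seen, held raw counts of 8, 6 and 7 under slick oil, 5, 5 and 6 under source oil and 0, 0 and 0 in controls at 96 hpf. At 24 hpf it held 4, 9 and 7 counts under slick oil, 5, 4 and 4 under source oil and 1, 0 and 0 in controls, and at 48 hpf 0, 2 and 2 under slick oil, 0, 2 and 2 under source oil and 2, 4 and 0 in controls. Oil libraries thus lay above all controls at 24 and 96 hpf and overlapped with them at 48 hpf. miR-6240 was among the members called under both oils at 96 hpf in the authors' deposited table and in edgeR with no filter. These calls were made on the same counts by which it was picked, so they are no separate evidence.

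For each named member the name outside the group with the most similar levels was sought among 638 names, by Pearson correlation of log2 levels over the 27 libraries. These libraries share stages and exposures, and the values are descriptions. miR-8159-5p was most like miR-187-3p (r = 0.96) and miR-7641 most like miR-92c-3p (r = 0.86). miR-2478 was most like miR-731 (r = 0.90), miR-2187-3p most like miR-153b-3p (r = 0.91) and miR-2188-5p most like miR-214 (r = 0.88). miR-2779 was most like miR-196b (r = 0.85), miR-7550 most like miR-203 (r = 0.80) and miR-3618-5p most like miR-133b-5p (r = 0.77). miR-3966 was most like miR-184 (r = 0.75), miR-2188 most like miR-730 (r = 0.87), and miR-2187 and miR-2187-5p most like miR-27d (r = 0.88 and 0.85). miR-1388 had no close match, with a highest r of 0.54 for miR-101b.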

How the data were processed

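Small RNA from 27 pools of whole animals was sequenced, and the authors deposited 1 table of whole-number counts per miRNA name for each oil and stage, with the same control libraries in both tables of a stage. The authors also deposited log2 fold changes with p-values and adjusted p-values per comparison, made with DESeq2 per the submitters' processing notes. Not given in the sources used here are the aligner, the reference, the counting rule and that DESeq2 version. Names missing from a table were taken as 0, and library totals ran from 51925 to 93055 counts, with at most 771 for a name. What 1 count stands for is not given in the sources used here, and 19 of 27 replicate pairs differed by less than counting error.

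Counts were tested with edgeR 4.0.16 in R 4.3.3 (quasi-likelihood F-test, filterByExpr with a minimum count of 10, TMM scaling, two-sided, Benjamini-Hochberg over all names tested, threshold 0.05). The standard error is the log2 fold change over the root of F, or, where edgeR's p is bounded by counting error, the one that p implies. DESeq2 1.42.0 and cyclic loess in limma 3.58.1 served as alternatives. Levels are normalised counts per 70000 from 1 TMM scaling of 655 names over all 27 libraries, with controls from the slick tables. Slick was tested against source oil in the 9 libraries of a stage, and change with stage by both treatment-by-stage terms together. The fits were tested on simulated data. Each library is a pool of 30 animals. The p-values measure the spread between these pools, except where edgeR bounds them by counting error, which they then measure instead.

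Members passing in any oil or control comparison, and the 5 with the highest mean level, were named with values, and miR-1388-3p, miR-1338-3p, miR-2188-3p and miR-6240 were added after their values were seen. Members and lists were chosen with earlier results of these data known. Whether equal replicate numbers pair oil and control libraries was not settled. For slick oil at 96 hpf deviations of same-numbered libraries from their group means correlated at 0.141, 0.176 and 0.150. In no other oil comparison did all 3 pairs exceed 0.1. Source oil at 96 hpf, with the same controls, gave 0.0252, -0.0382 and 0.173. Averaging the closely agreeing replicate pairs of 24 hpf was an alternative chosen after seeing the data. No sequence is printed.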

Additional observations from a re-analysis of the deposited data

Results flagged for a closer look

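The oil difference of 4 combinations of member and oil differed between stages by the test of both treatment-by-stage terms (edgeR, adjusted over all names). These were miR-8159-5p under slick oil (adjusted p = 0.00322) and under source oil (adjusted p = 0.000247), and miR-1388-3p (adjusted p = 0.0124) and miR-1338-3p (adjusted p = 0.0232) under slick oil. miR-1388-3p and miR-1338-3p are near copies and count as 1 signal. They passed the count filter of that fit through libraries where they were high. For miR-8159-5p the oil difference was larger at 24 hpf than at 96 hpf, and for the miR-1388-3p pair it was lower at 48 hpf.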

How the results depend on the processing

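Counts of members that passed are given here where they moved by over 1.5 times. With DESeq2 in place of edgeR they were 1 for source oil at 24 hpf, 1 for slick oil at 48 hpf, 3 for controls of 48 over 24 hpf, 3 for controls of 96 over 48 hpf and 1 for slick oil by stage. With no filter they were 5 for source oil at 24 hpf, 11 and 2 for slick and source oil at 48 hpf, 8 for slick oil at 96 hpf, 8 and 12 for the control steps and 3 for source oil by stage. With a mean count of at least 50, which leaves few members to test, they were 1 and 0 for slick and source oil at 48 hpf, 1 and 0 at 96 hpf, 1 for each control step and 0 by stage for each oil. With cyclic loess they were 7 and 8 for slick and source oil at 96 hpf and 0 by stage for each oil, and with library size alone 0 for source oil by stage. In the authors' deposited table they were 1 for slick oil at 24 hpf and 2 at 48 hpf. With the replicate number as a block the count for slick oil at 48 hpf was 2. The block moved no other count by over 1.5 times, slick oil at 96 hpf keeping a count of 4. Averaging closely agreeing replicates, chosen after seeing the data, gave 2 for slick and 4 for source oil at 24 hpf. Leaving out 1 library gave 2 to 2 for slick oil and 2 to 4 for source oil at 24 hpf, 1 to 6 and 1 to 2 at 48 hpf, and 4 to 5 and 3 to 4 at 96 hpf. It gave 4 to 7 for each control step, 0 to 0 for slick against source oil at each stage, and 0 to 5 and 0 to 1 by stage for slick and source oil. The count for slick oil at 48 hpf was 1 without control replicate 5 or slick replicate 6, and for source oil it was 2 without control replicate 6. It was 4 for controls of 96 over 48 hpf without replicate 9 of 96 hpf. By stage it was 0 for slick oil without control replicate 4 and 5 without slick replicate 5 of 48 hpf, and 0 for source oil without source replicate 9 of 96 hpf. The cause of these moves was not tested. Across single members 1600 of the alternative values stayed on their side of the threshold, 81 no longer passed, 11 newly passed and none was reversed. Low counts limit the rest: 158 of 207 members had a mean count below 1, too few for the count filter. Why these counts were low was not tested.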
